A study of Mus musculus with 8 samples.

Results

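Small nucleolar RNA (snoRNA) host RNAs are spliced, polyadenylated transcripts whose introns carry snoRNA genes. The set described here holds 9 of them that have a cytoplasmic spliced form: Gas5, Snhg1, Snhg3, Snhg5, Snhg6, Snhg8, Snhg12, Snhg15 and Snhg20. The members were chosen by name, as host RNAs of the 5' terminal oligopyrimidine (5'TOP) class that are decay substrates when translated. The rule names no measured value, but earlier results of these data were known when the members were chosen. They were looked up among the 39017 gene identifiers of the count table. Of the 9, 7 had an identifier there and 6 passed the expression filter, against 18952 of all genes. Snhg1 and Snhg8 could not be matched by identifier and were not analysed here. Snhg3 was listed at 0 to 2 counts per library and was not tested. Exons of other genes, Gm17300 on the opposite strand, Rcc1 and Snora73a, cover 86.31% of the exonic bases of Snhg3, so its count says little about its level.

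The cells were mouse embryonic fibroblasts from E13.5 embryos. In knockout cells Mettl3, the methyltransferase behind N6-methyladenosine (m6A) marks on mRNA, was removed with Cre, activated over 48 h by 4-hydroxytamoxifen at 500 nM. Loss of the protein and of m6A was examined after 7 days and cells were harvested a day later. The labels state neither whether control cells received the drug nor which promoter drives the recombinase. Total RNA came from unstressed control or knockout cells. The granule fraction came from cells of either genotype given 500 µM sodium arsenite for 30 min, and was enriched for stress granules by centrifugation. All RNA was selected for poly(A) tails. Each genotype thus gave a total and a granule group, 4 groups in all, with 2 biological replicates per group. Stress and fraction changed together, so a granule to total ratio holds both, and they cannot be told apart. In bulk RNA, fewer cells that hold a transcript and less of it per cell cannot be told apart either.

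As background, snoRNAs guide chemical modification of ribosomal and spliceosomal RNA. Box C/D snoRNAs direct 2'-O-methylation and box H/ACA snoRNAs direct pseudouridylation. Most vertebrate snoRNAs are cut out of introns after splicing, and the joined exons of a noncoding host leave the nucleus as an RNA with only short reading frames. Ribosomes read these frames, and the RNA is then destroyed by nonsense-mediated decay (NMD), which needs translation. A 5'TOP, a cytosine followed by a run of pyrimidines at the transcript start, ties the translation of an RNA to growth signals through mTOR. Stress granules gather RNAs whose translation has stopped, and arsenite stops the translation of most mRNAs. The comparisons describe levels of such RNAs in granule RNA of stressed and total RNA of unstressed cells, in control and knockout cells. Translation and m6A of the members were not measured here.

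The transcript starts are shown first, because the 5'TOP is part of what the members were chosen for. Each line gives 30 bases, from 10 before to 20 from the annotated start, of a RefSeq start window (GRCm38.p6). Capitals mark a run of at least 5 C or T that opens with C and lies within 5 bases before to 15 after the start.
Snhg12: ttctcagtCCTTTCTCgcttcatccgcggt
Gas5: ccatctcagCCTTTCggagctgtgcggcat
Snhg8: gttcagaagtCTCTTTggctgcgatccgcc
Snhg3: gaccacgcctgaCTTCCgggcgttacttaa
Snhg5: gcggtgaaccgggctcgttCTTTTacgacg
Snhg15: ctgtgaccgtaactttaagcacacgtgagc
Snhg20: gttccggccggaagtgcatttgcagagctg
The Snhg12 window is chr4:132308668-132308697 on the plus strand and that of Gas5, the second of its 2 entries, is chr1:161035156-161035185, also plus. The Snhg15 window is chr11:6528741-6528770 on the minus strand. Snhg12 had the longest run, of 8 bases. No run was found in the windows of Snhg15, Snhg20 and Snhg1 or in the first entry of Gas5. In all, 5 of 9 windows (55.6%) held a run, against 34.4% of 32851 start windows and 60.8% of 74 windows of cytosolic ribosomal protein genes, the classical 5'TOP genes. Annotated starts can lie some bases away from the starts used in these cells, so a window without a run says only that these letters do not stand there.

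The members share short reading frames. In the longest spliced transcript of each gene the first ATG opened a frame of 1 to 54 codons, 3 in Snhg5, 9 in Snhg6, 23 in Gas5, 35 in Snhg15, 50 in Snhg20 and 54 in Snhg12. The longest frame anywhere in these transcripts held 35 to 70 codons. The highest number of exons in a transcript of each gene was 3 to 12. Gas5 had the most annotated isoforms, 25, of which 20 retain an intron. The letters GGACT, the commonest form of the m6A consensus, were searched on the sense strand of the same transcripts. They stood 1 time in Gas5 and in Snhg6, 2 times in Snhg15 and 4 times in Snhg20, and not in Snhg5 or Snhg12. Of the 7 members with counts 57.1% held a match, against 88.2% of protein-coding genes and 69.3% of noncoding genes. The members' transcripts are shorter, with a median of 816 bases against 2755 and 1042. Per kilobase they held 1.26 matches, against 1.07 in protein-coding and 1.13 in noncoding genes. The matches in Gas5 and Snhg6 are printed with GGACT in capitals, as the sites where loss of the writer could be looked for.
Gas5, bases 343 to 363: gcttacgaGGACTcgtcagga
Snhg6, bases 584 to 604: agctgccaGGACTacatttgc
No m6A map was used, and a match is not a measured methylation site.

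Several facts about the libraries bear on all values. Total counts ran from 67257220 to 123508539. Over 10261 expressed genes replicates differed by a median of 1.07-fold (control) and 1.10-fold (knockout) in the granule fraction, and of 1.24-fold (control) and 1.76-fold (knockout) in total RNA. Mitochondrial transcripts took 7.6% of the counts in knockout total replicate 1, 6.16% and 8.81% in the knockout granule libraries, and 0.59% to 0.881% in the other 5. Mettl3 stood at 24.9 and 25.4 CPM (reads of a gene scaled by library size) in control total and 6.0 and 7.35 in knockout total libraries (log2 fold change -1.91, SE 0.27, adjusted p = 0.0345). In the granule fraction it was at 15.4 and 15.7 CPM in control and 5.56 and 6.38 in knockout cells (-1.38, SE 0.26, adjusted p = 0.0208). The Mettl3 call in total RNA was lost when only the 4 total libraries were fitted, where 0 of all genes were called. All 10 fibroblast markers stood at 1 CPM or more in every library, and their summed level was 6050 to 8980 CPM. The 13 markers of blood, endothelial, epithelial, muscle and neural cells summed to 138 to 153 CPM in control total, 67.4 to 96.4 in control granule, 122 to 125 in knockout total and 78.3 to 117 in knockout granule libraries, with Myod1 and Sox2 under 0.1 CPM. In control cells 2 of them were lower in the granule fraction, the neuronal tubulin Tubb3 (log2 fold change -3.00, SE 0.41, adjusted p = 0.00983) and the leukocyte marker Ptprc (-1.13, SE 0.27, adjusted p = 0.0386). Fibroblast markers moved too. In control cells Thy1 (-1.45, SE 0.32) and the collagen gene Col3a1 (-1.09, SE 0.25) were lower in the granule fraction, and the list's median was -0.72. In knockout cells Pdgfrb (1.65, SE 0.33), Col1a1 (1.56, SE 0.28) and Col3a1 (0.94, SE 0.25) were higher there and fibronectin, Fn1, was lower (-1.17, SE 0.29), with a median of 0.12. Between genotypes in the granule fraction Col3a1 (1.69, SE 0.25), Pdgfrb (1.45, SE 0.33) and Col1a1 (1.39, SE 0.27) were higher in knockout cells and vimentin, Vim, was lower (-1.34, SE 0.28), with a median of 0.88. Adjusted p of these calls was 0.0104 to 0.0363. All 12 marker calls were lost without either library of a granule group compared. Those in knockout cells were also lost when only the 4 knockout libraries were fitted, where 0 of all genes were called. The part of either marker list in the results was not tested.

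**Figure D1:**
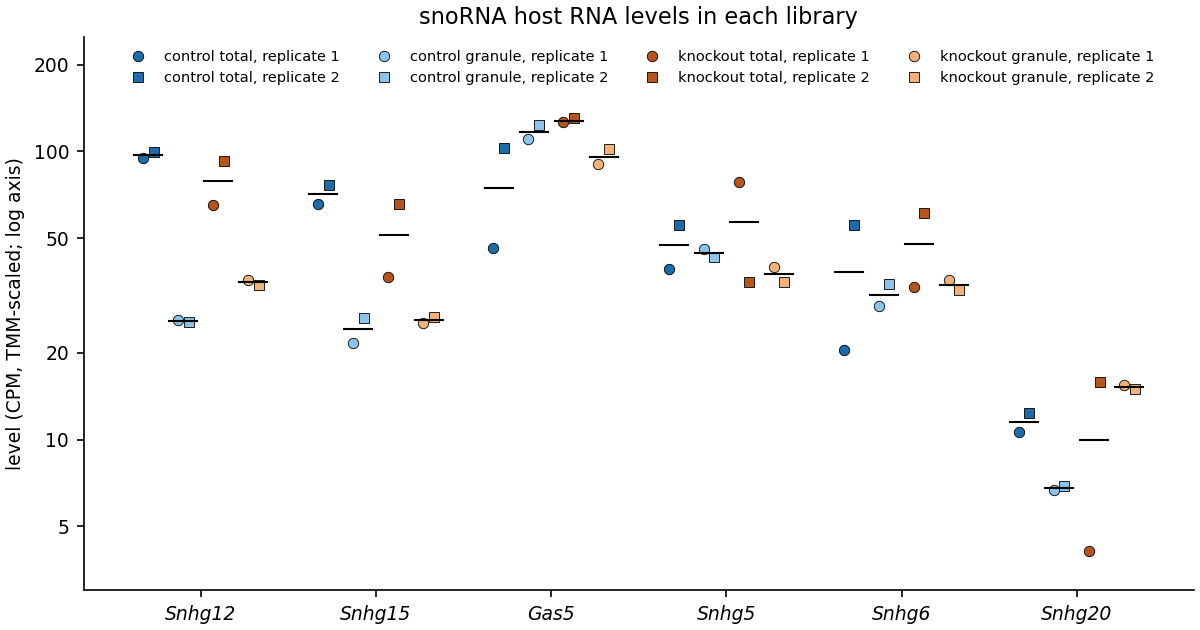
Level of each tested host RNA in each of the 8 libraries, in CPM after TMM scaling on a log axis; circles are replicate 1, squares replicate 2, and bars the mean of the 2 replicates. In control cells Snhg12 and Snhg15 lie lower in both granule libraries than in both total libraries, while the Gas5 granule libraries lie above the total libraries.

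Levels between genes were compared per kilobase of the median spliced isoform. In control total RNA Gas5 had the highest mean, 148 ± 79.1 CPM per kb (SD, n = 2), followed by Snhg15 at 119 ± 12.8, Snhg12 at 106 ± 3.33, Snhg6 at 68.1 ± 44.4, Snhg5 at 60.7 ± 14.9 and Snhg20 at 21.7 ± 2.46. The 2 libraries of Gas5 (92.3 and 204) lay on either side of those of Snhg15 (110 and 128) and of Snhg12 (104 and 109), and those of Snhg6 (36.7 and 99.5) on either side of those of Snhg5 (50.1 and 71.2). These neighbours were therefore not separated. Per kilobase, Snhg15 lay above Snhg12, and Snhg12 above Snhg6, without overlap, and Snhg20 was the lowest in both libraries. The order of Snhg15 and Snhg12 rests on the isoform lengths used, medians of 597 and 915.5 bases. Spliced isoforms of Snhg12 run from 422 to 1538 bases. Without division by length Snhg12 was the higher, at 95.1 and 99.5 CPM against 65.9 and 76.7 CPM for Snhg15. These 2 genes are therefore not ranked here. The order differed in control granule libraries. Gas5 stayed first at 232 ± 17.6 CPM per kb, and Snhg6 at 57.0 ± 7.28 and Snhg5 at 56.9 ± 2.64 came next. Snhg15 followed at 40.3 ± 5.77, Snhg12 at 28.1 ± 0.41 and Snhg20 at 12.8 ± 0.318.

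The first comparison asked which host RNAs of control cells differed in level between granule and total RNA. Snhg12 and Snhg15 were lower there, by 3.78-fold and 2.96-fold. The other 4 members were not called. The 2 calls of 6 members stand against 10.1% of all genes called in either direction, 5.89% higher and 4.17% lower. The members' median log2 fold change was -0.51 and that of all genes -0.06.

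Snhg12 (ENSMUSG00000086290, chr4:132308623-132311024, plus strand) hosts box H/ACA snoRNAs and the box C/D snoRNA Snord99. It stood at 95.1 and 99.5 CPM in control total libraries and at 26.0 and 25.5 CPM in control granule libraries. Replicates were within 1.05-fold of each other, and the groups did not overlap. Groups that do not overlap in the lower direction were seen in 37.3% of all genes, so this alone says little. The log2 fold change was -1.92 (SE 0.27, adjusted p = 0.0101 by edgeR's quasi-likelihood test). The value ran from -2.07 to -1.72 over 18 other settings. The call was lost when any 1 of the 4 libraries compared was left out (adjusted p = 0.0765 to 0.131), settings that called 0 to 75 genes of all. Genes inside Snhg12 on its own strand cover 19.57% of its exonic bases.

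Snhg15 (ENSMUSG00000085156, chr11:6525591-6528760, minus strand) hosts Snora9. It stood at 65.9 and 76.7 CPM in control total and at 21.6 and 26.5 CPM in control granule libraries, again without overlap. The log2 fold change was -1.57 (SE 0.33, adjusted p = 0.0285). This call was lost without any 1 of the 4 control libraries or of the 2 knockout granule libraries (adjusted p = 0.0808 to 0.232), with log2 fold changes from -1.68 to -1.38.

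Gas5 (ENSMUSG00000053332, chr1:161034422-161038539, plus strand) carries 10 small RNA genes, the most of any member, and is also known as a growth arrest RNA that binds the glucocorticoid receptor. It stood at 46.3 and 103 CPM in control total and at 110 and 123 CPM in control granule libraries. Both granule libraries lay above both total libraries, as did those of 35.2% of all genes. The log2 fold change was 0.65 (SE 0.37, adjusted p = 0.274) and was not called. It was 0.19 with control total replicate 1 left out and 1.37 with replicate 2 left out.

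Snhg5, Snhg6 and Snhg20 were not called either. Snhg5 (ENSMUSG00000097195, chr9:88521050-88522929, minus strand) carries Snord50a and Snord50b. Its levels were 39.2 and 55.6 CPM in control total and 45.9 and 43.0 CPM in control granule libraries, so that the groups overlapped (log2 fold change -0.09, SE 0.39). Snhg6 (ENSMUSG00000098234, chr1:9941959-9944118, minus strand) carries Snord87. It was at 20.5 and 55.6 CPM in control total and 29.0 and 34.7 CPM in control granule libraries (-0.26, SE 0.48). Its 2 control total libraries differed 2.71-fold, more than their means differed from the granule means. Exons of Mcmdc2 on the opposite strand cover 11.08% of the exonic bases of Snhg6, and the counting strand is not given in the sources used here. Snhg20 (ENSMUSG00000086859, chr11:117076008-117078955, plus strand) carries a small Cajal body RNA gene. It was at 6.68 and 6.92 CPM in control granule and at 10.6 and 12.4 CPM in control total libraries, without overlap, but the difference was not called (-0.76, SE 0.53, adjusted p = 0.375). Without knockout total replicate 1 or 2, which are not part of this comparison but share its spread, Snhg20 was called (adjusted p = 0.00537 and 0.00714, log2 fold changes -0.75 and -0.72), among 8118 and 8040 genes of all.

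**Figure D2:**
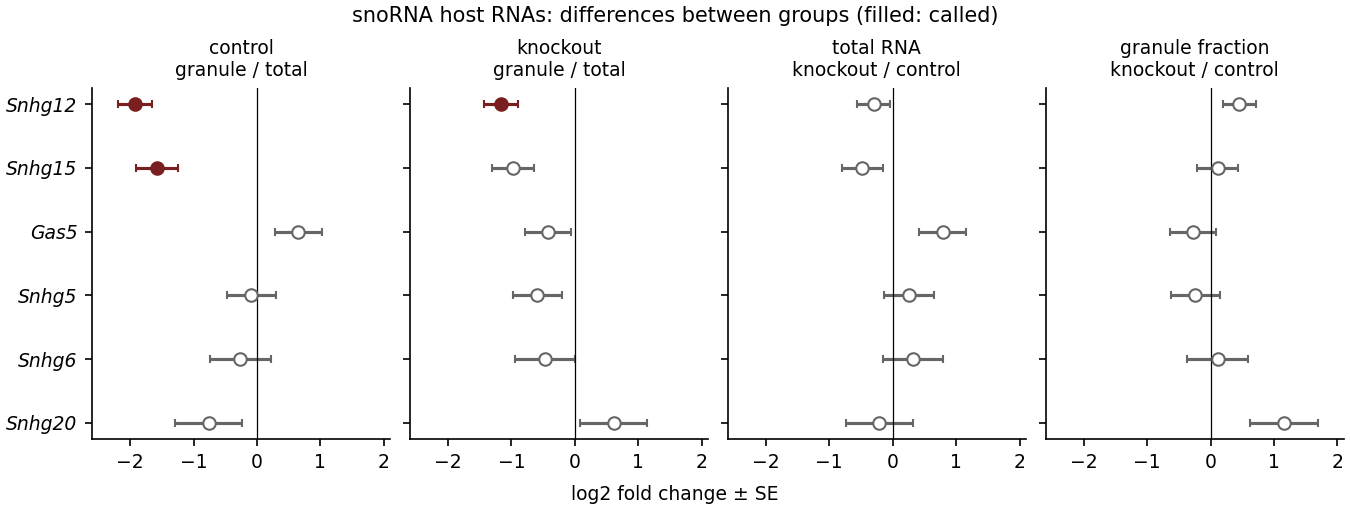
Log2 fold change with its standard error for the 6 tested host RNAs in 4 comparisons; filled points were called at an adjusted p under 0.05. Snhg12 is called in both granule to total comparisons, Snhg15 in the control one (-1.92, -1.17 and -1.57), and no point is filled in the knockout to control comparisons.

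In knockout cells the same question was asked of the granule and total libraries. Snhg12 was again lower in the granule fraction, by 2.25-fold, and was the only member called, against 17.6% of all genes in either direction, 9.17% higher and 8.47% lower. Its levels were 65.0 and 92.9 CPM in knockout total and 35.8 and 34.4 CPM in knockout granule libraries. The log2 fold change was -1.17 (SE 0.27, adjusted p = 0.0234). All log2 fold changes of Snhg12 over 18 other settings were below 0, from -1.41 to -1.02. The call was lost without either control granule library (adjusted p = 0.0566 and 0.0565) and without either knockout granule library (0.145 and 0.199). Fitted to the 4 knockout libraries alone, Snhg12 was at -1.24 and was not called (adjusted p = 0.133). That fit called 0 of all genes, so the lost call says little about Snhg12 itself.

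Snhg15 stood at 36.7 and 65.5 CPM in knockout total and 25.3 and 26.7 CPM in knockout granule libraries. The groups did not overlap, which held for 26.5% of all genes in this direction. The log2 fold change was -0.97 (SE 0.33, adjusted p = 0.0752), short of the threshold, whereas DESeq2's Wald test called it (-1.01, adjusted p = 0.0255). Without knockout total replicate 1 it was called at -1.34 and without knockout total replicate 2 at -0.62 (adjusted p = 0.000265 and 0.0257).

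The other members were not called in knockout cells. Gas5 was at 126 and 131 CPM in knockout total and at 90.3 and 102 CPM in knockout granule libraries (log2 fold change -0.42, SE 0.36), so both granule libraries lay below both total libraries, the reverse of control cells. Snhg5 was at 78.2 and 35.3 CPM in total and 39.8 and 35.3 CPM in granule libraries (-0.59, SE 0.39). Snhg6 was at 33.9 and 61.2 CPM in total and 35.8 and 33.0 CPM in granule libraries (-0.47, SE 0.48). The sign of the Snhg20 difference rested on 1 library. Snhg20 was at 4.11 and 15.8 CPM in total and 15.4 and 15 CPM in granule libraries, and the log2 fold change of 0.61 (SE 0.53) was -0.06 without knockout total replicate 1 and 1.76 without knockout total replicate 2, where it was called (adjusted p = 7.51e-05). Without that same library Snhg5 was called lower, at -1.19 (adjusted p = 0.000792), and without knockout total replicate 1 it was at 0.08. Fold differences between the knockout total replicates were 1.04 for Gas5, 1.43 for Snhg12, 1.79 for Snhg15, 1.80 for Snhg6, 2.21 for Snhg5 and 3.84 for Snhg20. In the granule fraction of either genotype replicates of every member were within 1.23-fold.

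What loss of Mettl3 changed was then compared within each fraction. In total RNA no member was called, by edgeR or by DESeq2, and none had an unadjusted p under 0.05; 0.412% of all genes were called. Log2 fold changes of knockout against control ran from -0.48 (Snhg15, SE 0.32) to 0.79 (Gas5, SE 0.37, adjusted p = 0.222), with a median of 0.03. Both knockout libraries of Gas5 lay above both control libraries, as did those of 24.4% of all genes. The knockout libraries of Snhg12 and Snhg15 lay below the control libraries, as did those of 24.7% of all genes. Between the lowest and the highest stood Snhg12 at -0.30 (SE 0.26), Snhg20 at -0.21 (SE 0.53), Snhg5 at 0.26 (SE 0.39) and Snhg6 at 0.32 (SE 0.48). Leaving out knockout total replicate 2 called 9627 genes of all, and among the members Snhg20 at -1.38, Snhg15 at -0.85 and Snhg5 at 0.83 (adjusted p = 0.000373, 0.00624 and 0.00797). Leaving out knockout total replicate 1 instead gave 0.46 for Snhg20 and -0.42 for Snhg5, so these differences took opposite signs with either library. These data thus do not fix the direction of the genotype difference of Snhg5 and Snhg20 in total RNA.

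In the granule fraction replicates lay closer together, and no member was called either, with 9.45% of all genes called. None had an unadjusted p under 0.05. Snhg20 had the highest value, with 6.68 and 6.92 CPM in control and 15.4 and 15 CPM in knockout libraries. The log2 fold change was 1.16 (SE 0.54, adjusted p = 0.204), with both knockout libraries above both control libraries, as in 40.4% of all genes. The shared spread takes in the knockout total libraries, where Snhg20 differed 3.84-fold between replicates. Fitted to the 4 granule libraries alone, Snhg20 was called at 1.17 (adjusted p = 2.71e-06), as were Snhg12 at 0.45 (adjusted p = 0.00162) and Gas5 at -0.27 (adjusted p = 0.0451). That fit called 10359 of all genes. Snhg12 was at 26.0 and 25.5 CPM in control and 35.8 and 34.4 CPM in knockout granule libraries (0.45, SE 0.26, adjusted p = 0.306 in the fit of all libraries). Without knockout total replicate 1, a library outside this comparison, Snhg20 (adjusted p = 0.000359) and Snhg12 (adjusted p = 0.042) were called, and without knockout total replicate 2 Snhg20 (adjusted p = 0.000561). The remaining members lay between -0.28 (Gas5, SE 0.36) and 0.11 (Snhg6, SE 0.48, and Snhg15, SE 0.32), with Snhg5 at -0.24 (SE 0.39). Both knockout granule libraries of Gas5 and of Snhg5 lay below the control ones, as in 36.6% of all genes.

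An interaction term compared the granule to total ratio between the genotypes. No member was called, none had an unadjusted p under 0.05, and 0.517% of all genes were called. Gas5 had the lowest value, -1.07 (SE 0.52, adjusted p = 0.229), since its granule libraries lay above the total libraries in control cells and below them in knockout cells. Snhg20 had the highest, 1.37 (SE 0.75, adjusted p = 0.279), and Snhg12 was at 0.75 (SE 0.37, adjusted p = 0.239), its granule to total ratio being 1.68-fold higher in knockout cells. Snhg15 was at 0.59 (SE 0.46), Snhg6 at -0.21 (SE 0.67) and Snhg5 at -0.50 (SE 0.55). Without knockout total replicate 2, a setting that called 9349 genes of all, 5 members were called, Snhg20 at 2.47, Snhg15 at 0.90, Snhg12 at 0.86, Snhg5 at -1.14 and Gas5 at -1.21 (adjusted p = 4.04e-05, 0.0181, 0.0121, 0.00661 and 0.0449). No member was called with any other library left out. Calls over all genes moved with the library left out too, so this is no result about the members.

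Count ratios between hosts within 1 library do not depend on scaling. These ratios were chosen after the values were seen. Gas5 gave 0.487 and 1.03 reads per Snhg12 read in control total, 4.24 and 4.82 in control granule, 1.93 and 1.41 in knockout total and 2.52 and 2.95 in knockout granule libraries. The granule libraries thus lay above the total libraries in both genotypes. The ratio of Snhg12 to Snhg15 reads stayed between 0.962 and 1.77. Across the 8 libraries, which form 4 groups, Snhg12 and Snhg15 had a Pearson correlation of 0.96, Gas5 and Snhg12 one of -0.31, and Snhg5 and Snhg20 one of -0.76, given as a description.

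**Figure D3:**
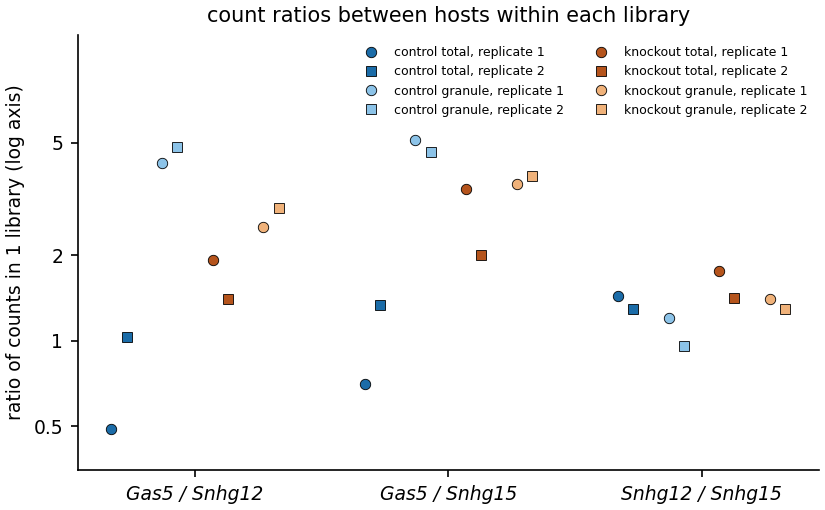
Ratio of raw counts of 2 host RNAs in each library on a log axis; circles are replicate 1 and squares replicate 2, coloured by group. Gas5 to Snhg12 is 4.24 and 4.82 in control granule libraries and at most 1.03 in control total libraries, while Snhg12 to Snhg15 lies between 0.962 and 1.77 everywhere.

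**Figure D4:**
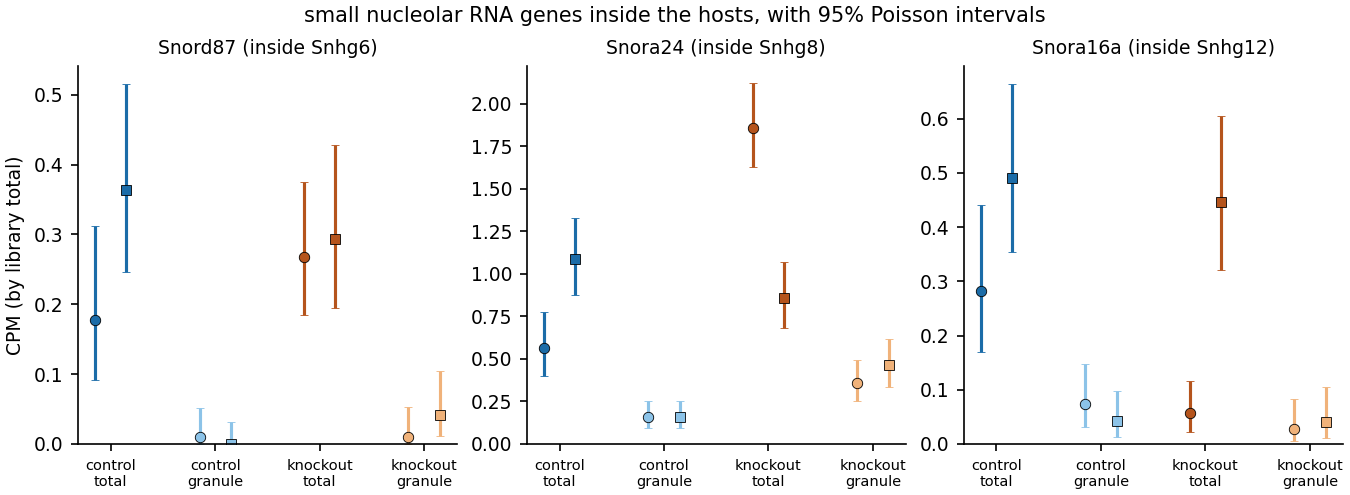
CPM without TMM factors for the 3 snoRNA genes inside host RNAs that had any counts, each library a point (circle, replicate 1; square, replicate 2) with its 95% Poisson interval. The granule libraries lie below the total libraries for Snord87 and Snora24 in both genotypes, and knockout total replicate 1 stands apart for Snora24 (1.86) and Snora16a (0.0567).

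The snoRNA genes carried by the hosts were counted too. Mature snoRNAs have no poly(A) tail, so a poly(A) library holds few of them. The annotation places 31 small RNA genes of 60 to 205 bases inside the members on their strand, and 29 had an identifier in the table. Of these, 26 were at 0 in every library, 24 of them wholly within annotated exons of the host. A read there and a read of the host cannot be told apart, so these zeros are no measure of the snoRNAs. Counts were found for 3: Snord87, in an intron of Snhg6, Snora24, within an exon of Snhg8, and Snora16a, within an exon of Snhg12. Snora24 is the only 1 that reached 1 CPM. The 2 others are named because no further hosted gene had counts. Sequences of Snord87 and Snora24 are shown with the closing box in capitals, CTGA (box D) in the first and ACA in the other.
Snord87, chr1:9942463-9942549, minus strand: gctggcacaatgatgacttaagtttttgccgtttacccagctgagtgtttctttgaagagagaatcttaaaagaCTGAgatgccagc
Snora24, chr3:123507937-123508066, minus strand: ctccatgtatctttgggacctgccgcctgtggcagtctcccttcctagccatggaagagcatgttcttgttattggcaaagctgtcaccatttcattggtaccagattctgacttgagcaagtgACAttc
Both come from the GRCm38 transcript annotation. Box D stands 9 bases and ACA 3 bases before the 3' end.

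Reads of Snord87, a box C/D snoRNA, were found mostly in total RNA. The control total libraries held 12 and 31 and the control granule libraries 1 and 0. The knockout total libraries held 33 and 27 and the knockout granule libraries 1 and 4. Pooled over replicates, the granule to total ratio of the rates was 0.0157 in control cells (95% exact interval 0.000389 to 0.0925) and 0.0882 in knockout cells (0.0276 to 0.217). Both differences were called (adjusted p = 0.0231 and 0.0288), and both calls were lost without either knockout granule library (0.0539 and 0.0518 in control cells, 0.185 and 0.116 in knockout cells) and without either control total library. The control call was also lost without either control granule library. With at most 4 reads in a granule library, Snord87 passed the expression filter only through total RNA. The filter thus favoured a lower granule level, so these calls add little to the counts themselves. Set against the host, Snord87 gave 4.58 to 8.74 reads per 1000 Snhg6 reads in the 4 total libraries and 0 to 1.23 in the 4 granule libraries, without overlap. The Snhg6 host RNA itself overlapped between these fractions. The intervals cover counting error alone and leave out the spread between replicates, which were pooled. PCR copies of a molecule were not told apart.

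Snora24, a box H/ACA snoRNA, gave 38 and 93 reads in control total and 17 and 19 in control granule libraries. In knockout cells it gave 230 and 79 reads in total and 38 and 45 in granule libraries. Pooled over replicates, the ratio of rates was 0.186 in control (0.125 to 0.271) and 0.284 in knockout cells (0.22 to 0.363). These intervals too leave out replicate spread. The knockout total libraries stood at 1.86 (1.63 to 2.12) and 0.861 (0.681 to 1.07) CPM, with counting intervals that do not overlap. Both granule to total differences were called (adjusted p = 0.0458 and 0.049). The control call was lost without any 1 of the 4 control or 2 knockout granule libraries (adjusted p = 0.0986 to 0.263), and the knockout call without any library except knockout total replicate 2 (0.0717 to 0.244). In knockout cells its log2 fold change of -1.85 was -1.04 without knockout total replicate 1. Whether its reads came from the snoRNA or from the Snhg8 exon around it cannot be told apart. Snora16a gave 19 and 42 reads in control total, 8 and 5 in control granule, 7 and 41 in knockout total and 3 and 4 in knockout granule libraries. Its rates had a ratio of 0.144 (0.0727 to 0.265) in control and 0.154 (0.0589 to 0.343) in knockout cells, and neither difference was called (adjusted p = 0.104 and 0.0843). Like Snord87, Snora16a passed the expression filter only through total RNA.

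Other genes of the pathway were described from lists. Of 10 further noncoding hosts 5 were tested. In control cells 1 was called, Snhg17, lower in the granule fraction at 31.2 and 31.4 CPM against 78.4 and 77.8 CPM (log2 fold change -1.32, SE 0.33, adjusted p = 0.0447). The list's median was -0.14. No other contrast called any of the 5 by edgeR, with 3 at an unadjusted p under 0.05 in knockout granule against total and at most 1 elsewhere. DESeq2 called Zfas1, Snhg9 and Snhg18 in knockout granule against total and Snhg18 between genotypes in the granule fraction. Zfas1, a 5'TOP host of box C/D snoRNAs, was at 137 and 241 CPM in control total and 75.2 and 82.8 CPM in control granule libraries (-1.26, SE 0.49, adjusted p = 0.13). In knockout cells it was at 122 and 348 CPM in total and 70.8 and 76.1 CPM in granule libraries (-1.68, SE 0.49, adjusted p = 0.0512). Snhg9 and Snhg18 had the opposite sign in knockout cells, where the list's median was 0.17. Snhg9 was at 0.485 and 1.55 CPM in total and 3.42 and 3.14 CPM in granule libraries (1.69, SE 0.62, adjusted p = 0.0965), and Snhg18 at 15.6 and 12.2 against 26.8 and 25.0 CPM (0.90, SE 0.31, adjusted p = 0.0778). Of 22 protein-coding 5'TOP hosts, which keep a long reading frame, none was called in control cells by edgeR (median -0.35, with 5 at an unadjusted p under 0.05). In the control granule fraction DESeq2's Wald test called Rpl12 lower (-0.96, adjusted p = 0.0161) and Rpl21 higher (0.96, adjusted p = 0.0204). In knockout cells 1 was called by edgeR, the ribosomal protein gene Rpl23a, at 374 and 301 CPM in total and 165 and 169 CPM in granule libraries (-1.02, SE 0.25, adjusted p = 0.0283). DESeq2's Wald test called Rpl23a (-1.05, adjusted p = 0.00093) and Rpl12 (-1.0, adjusted p = 0.00857) lower there.

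Transcripts of the decay machinery were mixed. Of 18 transcripts of NMD factors 2 were higher in the control granule fraction and none lower, where 5.89% of all genes were called higher. Upf2, which bridges Upf1 to the exon junction complex, was at 13.1 and 20.9 CPM in control total and 82.8 and 74.9 CPM in control granule libraries (log2 fold change 2.21, SE 0.46, adjusted p = 0.0276). Rbm8a, a core protein of the exon junction complex, went from 67.6 and 69.8 to 160 and 167 CPM (1.25, SE 0.28, adjusted p = 0.0336). In knockout cells 3 factors were higher and 1 was lower, against 9.17% and 8.47% of all genes. Upf2 was at 56.8 and 22.5 CPM in total and 138 and 168 CPM in granule libraries (1.95, SE 0.45, adjusted p = 0.026), and Upf3a, a paralog of the adaptor Upf3b, at 67.7 and 58.4 against 173 and 201 CPM (1.57, SE 0.24, adjusted p = 0.00665). The third was the endonuclease gene Smg6, named after its value was seen, at 45.1 and 51.6 against 81.2 and 93.0 CPM (0.85, SE 0.24, adjusted p = 0.0477). The lower one was Pnrc2, which links decay to decapping. It stood at 327 and 52.5 CPM in knockout total and 26.2 and 24.4 CPM in knockout granule libraries (-2.91, SE 0.74, adjusted p = 0.0336). Without knockout total replicate 1 it was at -1.06, and Upf2 was at 1.30 without knockout total replicate 2. The list's median was 0.21 in control and -0.20 in knockout cells.

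Of 11 genes for snoRNP proteins, which package snoRNAs, Nop56 was lower in the granule fraction of both genotypes. It encodes a box C/D core protein and is itself a snoRNA host. It was at 501 and 494 CPM in control total and 224 and 246 CPM in control granule libraries (log2 fold change -1.08, SE 0.23, adjusted p = 0.0295). In knockout cells it was at 489 and 510 CPM in total and 176 and 200 CPM in granule libraries (-1.41, SE 0.23, adjusted p = 0.00835). The H/ACA assembly factor Naf1, at 196 and 75.5 CPM in knockout total and 46.0 and 44.3 CPM in knockout granule libraries, was lower in the granule fraction (-1.59, SE 0.44), and was at -0.75 without knockout total replicate 1. By edgeR 1 of the 11 was thus lower in control and 2 in knockout cells, where 4.17% and 8.47% of all genes were. None was called higher. DESeq2's Wald test also called Nop58 higher in the control granule fraction (1.47, adjusted p = 0.0278). It called Snu13 lower in the knockout one (-0.89, adjusted p = 0.0173). The list's median was -0.12 in control and -0.53 in knockout cells.

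Nuclear-retained noncoding RNAs were listed as a contrast to the cytoplasmic hosts, and 6 were tested. Neat1, the scaffold of paraspeckles, was lower in the control granule fraction, at 94.2 and 90.0 against 212 and 374 CPM (log2 fold change -1.67, SE 0.37, adjusted p = 0.0336). It was the only 1 of the 6 called there by edgeR. DESeq2's Wald test also called Meg3 lower (-1.06, adjusted p = 0.0233) and Tug1 higher (1.73, adjusted p = 0.0168) there, so the list did not move 1 way. The list's median was -0.71 in control and 0.03 in knockout cells. Malat1, an RNA of nuclear speckles, was higher in the knockout granule fraction, at 2410 and 3210 against 707 and 446 CPM (2.28, SE 0.43, adjusted p = 0.0133). Its granule level was also higher in knockout than in control cells, at 699 and 679 CPM in the latter (2.03, SE 0.43, adjusted p = 0.0297). The granule fractions of both genotypes thus held RNAs that are background markers of the nucleus, and the part of this in the values of the host RNAs was not tested. By edgeR no gene of these 5 lists was called between genotypes in total RNA or in the interaction, and in the granule fraction Malat1 was the only 1. An unadjusted p under 0.05 was found for 9 NMD factors in total RNA and 5 in the interaction, and for 0 to 3 genes of each other list. Genes called by DESeq2 included Pnrc2, Smg8, Upf3b, Nolc1 and Tug1 in total RNA and Pnrc2, Upf3a, Naf1, Tug1 and Neat1 in the interaction. The named calls in control cells (Snhg17, Upf2, Rbm8a, Nop56, Neat1) were lost without any 1 of the 4 control or 2 knockout granule libraries, with adjusted p up to 0.277. The named calls in knockout cells were lost without either knockout granule library, and those of Rpl23a, Pnrc2, Naf1, Smg6 and Upf2 also without either control granule library or control total replicate 2. The first 4 of these were lost without control total replicate 1 as well. Fitted to the 4 knockout libraries alone, none of the named knockout calls of these lists, of Snord87 or of Snora24 was kept (adjusted p = 0.0884 to 0.241). That fit called 0 of all genes. The genotype call of Malat1 was lost without any 1 of the 4 granule libraries (adjusted p = 0.151 to 0.239).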

How the data were processed

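Poly(A) RNA of 8 libraries was sequenced (Illumina), as the labels state. The authors deposited raw read counts per Ensembl gene identifier. STAR, DESeq2 and the builds GRCm38 and mm10 are named in the submitters' processing notes. The counter, annotation release, strand setting and the treatment of reads that map to several places are not given in the sources used here. Of 39017 identifiers 37693 matched GENCODE M21, and unmatched ones held at most 0.221% of a library's counts.

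Counts were fitted in edgeR 4.0.16 (R 4.3.3) with 1 mean per group over all 8 libraries, TMM scaling, the filterByExpr filter (18952 genes) and the quasi-likelihood F-test with robust spread (4 residual degrees of freedom). All adjusted p-values are from this fit, Benjamini-Hochberg adjusted over all tested genes, unless another tool is named, and a gene was called under 0.05. Levels are TMM-scaled CPM, except that rates of the hosted snoRNA genes are counts over library totals. Replicates are labelled as biological, with no word on separate embryos, so p-values measure the spread between these samples. The fit was tested on simulated data in which every gene and library had the same spread. Changes put into the control granule to total comparison (18280 genes) were recovered for 59 of 100 genes at 2-fold and 89 of 100 at 4-fold. There were 12 false calls. In these data replicates differed by a median of 1.07-fold in control granule and 1.76-fold in knockout total libraries. The simulation therefore does not show how many changes or false calls to count on here. Alternatives were DESeq2 1.42.0, other scalings and filters, a replicate block, GC and length trends removed, leaving out each library, and the compared groups alone. Start windows came from RefSeq (8 of 9 members had an entry), other sequences from the GENCODE M21 transcripts (GRCm38).

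The members and lists were chosen with earlier results of these data known. All members were named, from each other list up to 2 called genes with the highest and 2 with the lowest fold change per contrast, and the 5 genes most like the members' mean profile. The third called fibroblast marker of a contrast, the uncalled hosts and the genes named as called by DESeq2 were chosen after their values were seen.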

Additional observations from a re-analysis of the deposited data

How the results depend on the processing

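With 2 libraries per group the counts of called members moved with single libraries, and the granule to total differences of Snhg12 and Snhg15 kept their sign under the alternatives run for single genes, which leave out the exchanged numbers below. Leaving out 1 library leaves a lone sample that is assumed to vary like the other groups. The number of members called then ran from 0 to 3 in control granule against total, 0 to 4 in knockout granule against total, 0 to 3 between genotypes in total RNA, 0 to 2 in the granule fraction and 0 to 5 in the interaction, the highest number in each coming without a knockout total library. The members' median then ran from -0.83 (without control total replicate 1) to -0.19 (without control total replicate 2) in control granule against total. It ran from -0.68 to -0.51 in knockout granule against total. Between genotypes it ran from -0.27 to 0.28 in total RNA and from -0.09 to 0.20 in the granule fraction. In the interaction it ran from -0.28 to 0.51. Single members changed sign: Snhg5 ran from -0.32 to 0.22 and Snhg6 from -0.80 to 0.68 in control granule against total. In knockout granule against total Snhg5 ran from -1.19 to 0.08 and Snhg20 from -0.06 to 1.76. In total RNA Snhg5 ran from -0.42 to 0.83, Snhg6 from -0.23 to 1.27 and Snhg20 from -1.38 to 0.46. In the granule fraction Snhg6 ran from -0.09 to 0.19 and Snhg15 from -0.10 to 0.21, and in the interaction Snhg5 ran from -1.14 to 0.17 and Snhg6 from -1.22 to 0.33.

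Other settings changed the knockout granule to total count from 1 to 2 members (no filter, GC trend removed with and without the block, length trend removed, DESeq2's Wald test) or to 0 (only the groups compared). The settings with 2 members called 3785 to 6154 genes of all, against 3343 in the main fit. The setting with 0 members called 0 genes of all. Only the groups compared gave 3 members between genotypes in the granule fraction, among 10359 genes of all. With the length trend removed the median was -0.91 in knockout granule against total, -0.17 between genotypes in the granule fraction and -0.32 in the interaction, Snhg5 was at 0.12 in control granule against total, and Snhg6 and Snhg15 were at -0.15 and -0.19 between genotypes in the granule fraction. A minimum mean of 5 CPM gave a median of 0.29 there. With the GC trend removed Snhg5, Snhg6 and Snhg20 were at -0.23, -0.06 and 0.11 between genotypes in total RNA, and Snhg5 and Snhg6 at 0.09 and 0.33 in the interaction. The cause was not tested.

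Replicate numbers did not pair the samples. Deviations of same-numbered libraries from their group means had correlations across genes of -0.602 to 0.19. The replicate block lowered the members called to 1 in control and 0 in knockout granule against total, and all genes called from 1906 to 581 and from 3343 to 1898. It left Snhg15 in control cells at an adjusted p of 0.0501 and Snhg12 in knockout cells at 0.053. Also lost under it were both calls of Snord87 (0.0529 and 0.0516) and of Snora24 (0.0882 and 0.0912), the control calls of Snhg17, Rbm8a, Upf2, Nop56 and Neat1 (0.0528 to 0.0832), the knockout calls of Rpl23a, Pnrc2, Smg6, Upf2 and Naf1 (0.0526 to 0.0979) and the genotype call of Malat1 (0.0609). The Mettl3 call between genotypes in total RNA was lost too, as the block left 0 of all genes called there. Together with GC removal, the paired fit put Snhg5, Snhg6 and Snhg20 at -0.25, -0.16 and 0.06 in total RNA and Snhg5 and Snhg6 at 0.11 and 0.47 in the interaction. Exchanging the numbers of the control total libraries, an alternative chosen after seeing the data, gave 2 and 1 members called in control and knockout granule against total.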

Other observations

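The wider snoRNA class was counted for comparison with the hosted genes. The table held 1525 genes annotated as snoRNA or scaRNA, of which 953 were at 0 in every library and 160 passed the filter. In control cells 11 were lower and none higher in the granule fraction by edgeR (6.88% lower, against 4.17% of all genes, median log2 fold change -1.41, with 78.8% below 0). In knockout cells 12 were lower, 7.5% against 8.47% of all genes, and 10 higher (median -0.41). The members' own median was -0.51 and -0.53. Between genotypes none was called in total RNA, and 7 were higher and 1 lower in knockout cells in the granule fraction. A gene could pass the filter through 1 fraction alone, as Snord87 did, so these shares and medians may reflect the filter. Many of these genes lie within introns or exons of other genes, whose reads cannot be told apart from theirs.

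The 5 genes with the pattern most like the members' mean profile, of 10261 genes over 8 libraries, were Hspa5 (Pearson r 0.97), which encodes an endoplasmic reticulum chaperone, and Tmem260, Zfas1, Rpp40 and Trim39 (0.93 each). Zfas1 is itself a snoRNA host. The profile was highest in the replicate 2 libraries of control total (0.54) and knockout total RNA (0.52), and lowest in control granule replicate 1 (-0.42), on a log2 scale centred over the libraries.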
